A study of Mus musculus and Homo sapiens with 30 samples.

Results

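The genes described here carry cystine into the cell and build the antioxidant tripeptide glutathione from it. They are Slc7a11, Slc3a2, Gclc, Gclm, Gss and Gsr, chosen by name as the exchanger and the enzymes of the route. All 6 were found by symbol among the 56980 gene IDs of the mouse count table, and their 6 human orthologues were found by ID among the 61552 IDs of the human table. All 6 passed the filter on low counts in each of the 3 cell lines.

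Cystine, the oxidised dimer of cysteine, enters cells through an exchanger that releases glutamate in return. The exchanger has a transport subunit, Slc7a11, and a chaperone subunit, Slc3a2, that brings it to the membrane and also serves other amino acid carriers. Inside the cell cystine is reduced to cysteine, which glutamate-cysteine ligase joins to glutamate in the rate-limiting step of glutathione synthesis; glutathione synthetase then adds glycine, and glutathione reductase returns oxidised glutathione to its reduced form. Glutathione is the cofactor with which Gpx4 detoxifies lipid peroxides, so a block of cystine import is a classical trigger of ferroptosis, the iron-dependent death by lipid peroxidation named in the title of the study. Genes of this route are textbook targets of the oxidant-responsive factor NRF2 (Nfe2l2) and, for Slc7a11, also of the amino acid stress factor ATF4.

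RNA was sequenced from SkBr3, a human breast cancer line, E0771, a mouse mammary cancer line, and NMuMG, a mouse mammary gland epithelial line, which the labels also list under breast cancer. After 36 h of growth the cells spent 16 h in growth medium alone (control) or in growth medium of which 50% was replaced by the secretome of inguinal adipocytes, lean or obese. The share of secretome was therefore constant between the lean and obese groups, and control medium had none. All lines grew in DMEM with 10% FBS; that of NMuMG also held insulin at 10 mcg/ml, and its glucose is given as 4.5 g/L. There were 4 libraries per medium in SkBr3 and 3 per medium in E0771 and in NMuMG. Nothing in the labels says that replicates were separate cultures, so the p-values measure only the spread between these libraries. The source animals and their number are not stated for the adipocytes, and the libraries are of bulk RNA, in which fewer cells of a type and less RNA per cell cannot be told apart.

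The total count per library ran from 22929035 to 31094119 in E0771, from 23966897 to 29686456 in NMuMG and from 18479433 to 29195499 in SkBr3. Values below are CPM, counts scaled to the library total with TMM factors. Of 5 epithelial markers, NMuMG expressed Cdh1, Krt8, Krt18 and Krt19 strongly, but Epcam only at 1.60 to 2.64 CPM. In E0771 Krt8 was the only 1 of the 5 above 1 CPM, and Krt19 was at 0 in all 9 libraries. Of the 5 fibroblast markers in E0771, Col1a1 and Pdgfra carried the signal, and the summed level of the list was 760.1 to 845 CPM in control, 293 to 321 with lean and 532 to 729.5 with obese secretome. Over the 9 libraries Col1a1 ran from 189.5 to 727 CPM and Pdgfra only from 99.5 to 121 CPM, so the sum moved mainly with Col1a1. The sum was lowest with the lean secretome, and its part in the results below was not tested. The 7 adipocyte markers in NMuMG, where Lep, Plin1 and Cfd were at 0 throughout, summed to 2.02 to 2.19 CPM with lean secretome, 0.391 to 0.739 in control and 0.373 to 1.10 with obese secretome. The lean libraries were thus above all others at a low level, with Cidec at up to 2.08 CPM. In E0771, where Lep was at 0 throughout, the groups overlapped, at 0.750 to 1.16 CPM with lean, 0.964 to 1.06 in control and 0.866 to 1.61 with obese secretome. Mitochondrial genes took 1.60% to 2.06% of the counts in the E0771 control libraries, more than the 1.32% to 1.46% with lean and the 1.19% to 1.41% with obese secretome, while the groups overlapped in NMuMG, at 1.12% to 1.57%. The part of the adipocyte markers and of the mitochondrial share in the results below was not tested.

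With the lean secretome, 5 of the 6 genes rose against both control medium and obese secretome in E0771 and in SkBr3, and all 6 did in NMuMG. The gene that did not change differed: Slc3a2 in E0771 and GSS in SkBr3. Slc7a11, the transport subunit, had the largest change of the 6 in NMuMG and SkBr3, while in E0771 the largest was in Gclm, the modifier subunit of the ligase. With the obese secretome none of the 6 passed the test against control in any line. The 5 calls in E0771 between lean and obese secretome stand against 52.7% of all tested genes called there (25.8% higher), the 6 in NMuMG against 35% (17.6% higher), and the 5 in SkBr3 against 44.1% (21.1% higher). Against control, the background was 56.3% in E0771 (27.3% higher), 38.2% in NMuMG (19.1% higher) and 48.8% in SkBr3 (23.7% higher). In each of these calls every lean library lay above every library of the other group. Among all tested genes that held, for lean over obese, in 29.9% in E0771, 22.7% in NMuMG and 15.9% in SkBr3, and for lean over control in 29.9%, 23.9% and 19.6%.

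**Figure D1:**
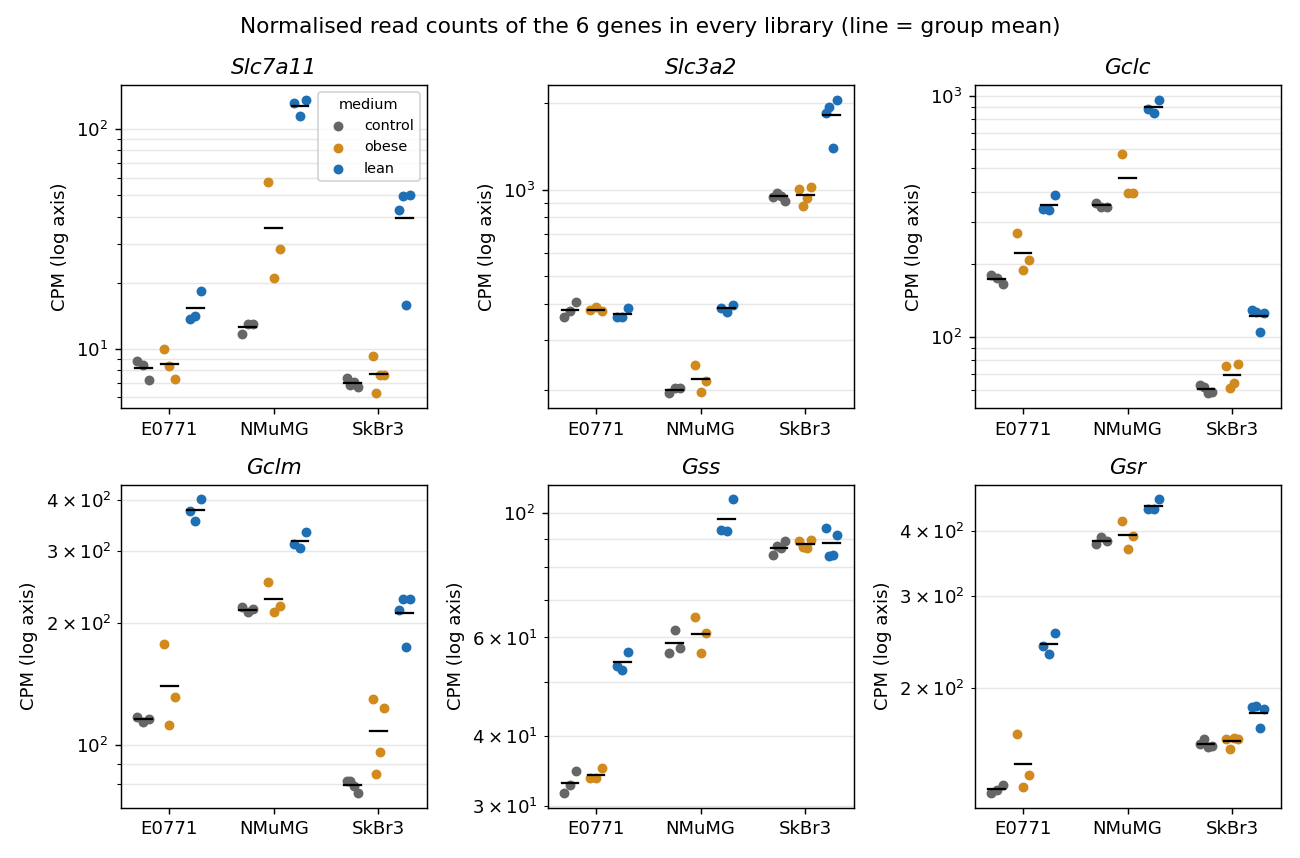
CPM of the 6 genes (human orthologues in SkBr3) in every library, on log axes, by cell line and medium; each point is a library and each line a group mean. The lean libraries lie above all control and obese libraries in every panel and line except Slc3a2 in E0771 and GSS in SkBr3, and 1 obese library of NMuMG lies high for Slc7a11, at 57.2 CPM.

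Slc7a11 had the largest response of the 6 genes in NMuMG, and the bases before its start are given because they hold a rare pair of matches. The 250 bases upstream of the Slc7a11 start (RefSeq, GRCm38.p6, chr3:50443614-50443863, minus strand) are printed 5' to 3', with matches to TGATGNAA, the core of the amino acid response element bound by ATF4 and its partners, in capitals.
Slc7a11: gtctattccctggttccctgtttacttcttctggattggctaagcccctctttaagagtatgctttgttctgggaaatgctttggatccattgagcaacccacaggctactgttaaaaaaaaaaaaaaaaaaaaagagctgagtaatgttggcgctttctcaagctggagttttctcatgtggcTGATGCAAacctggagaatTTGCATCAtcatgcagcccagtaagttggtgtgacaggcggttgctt
There was 1 match on each strand, at bases -66 to -59 and -47 to -40 from the start. Searched on both strands, 3.45% of the 32851 mouse promoters in the table held at least 1 match and 0.0396% (13 promoters) held 2 or more. No TGACNNNGC, the core of the antioxidant response element to which NRF2 binds, was in this window. A match of letters is a description of the sequence and not a site shown to be bound. The counts were made on another build, so the coordinates apply to this table only.

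In NMuMG, Slc7a11 was at 11.7, 12.9 and 13.0 CPM in the control libraries, 131, 115 and 136 CPM with the lean secretome and 57.2, 21.1 and 28.5 CPM with the obese secretome. The 3 groups did not overlap: every obese library lay above every control library and below every lean library. The log2 fold change of lean over control was 3.35 (SE 0.37, adjusted p = 0.00047 in edgeR's quasi-likelihood test), the 13th largest in size among 15014 tested genes. Against the obese secretome it was 1.85 (SE 0.32, adjusted p = 0.00492). The obese over control difference was 1.50 (SE 0.40), the 24th largest in size, but did not pass the test (adjusted p = 0.113). It passed when obese replicate 1 was left out (0.99, adjusted p = 0.026) or obese replicate 2 (1.76, 0.0495), and in DESeq2 (1.51, 0.00238); over all alternatives the adjusted p ran from 0.00238 to 0.302.

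SLC7A11 in SkBr3 was at 7.38, 6.87, 7.02 and 6.70 CPM in control, 42.6, 49.5, 15.7 and 49.98 CPM with the lean secretome and 9.27, 6.27, 7.61 and 7.59 CPM with the obese secretome. All 4 lean libraries stood above the rest, lean replicate 3 by much less than the other 3, and the obese libraries overlapped the controls. Lean exceeded obese by 2.38 on the log2 scale (SE 0.33, adjusted p = 0.000328), the 9th largest change in size of 14874 tested genes, and by 2.63 without lean replicate 3. Lean over control was 2.51 (SE 0.34, adjusted p = 0.000206).

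The response of Slc7a11 was smallest in E0771, with 8.82, 8.40 and 7.23 CPM in control, 13.7, 14.2 and 18.3 CPM with the lean secretome and 9.96, 8.30 and 7.30 CPM with the obese secretome. The lean libraries again lay above all others, and the obese and control libraries overlapped. Lean over obese was 0.86 on the log2 scale (SE 0.12, adjusted p = 5.59e-06) and lean over control 0.92 (SE 0.12, adjusted p = 2.4e-06). Counts of Slc7a11 in E0771 were between 165 and 573 per library, the fewest of the 6 genes.

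Slc3a2, the chaperone subunit, is shared between the cystine exchanger and carriers of large neutral amino acids. It did not follow Slc7a11 in E0771, where it was at 360.4, 377 and 406 CPM in control, 359, 358 and 386 CPM with the lean secretome and 380.2, 388 and 377 CPM with the obese secretome. These groups overlapped, and lean differed from obese by -0.05 on the log2 scale (SE 0.04, adjusted p = 0.307). In NMuMG Slc3a2 rose from 195, 203 and 204 CPM in control to 388, 373 and 394 CPM with the lean secretome, and stood at 244, 197 and 214 CPM with the obese secretome. The lean libraries were clear of the others there, with 0.82 over obese (SE 0.07, adjusted p = 5.78e-06) and 0.94 over control (SE 0.07, adjusted p = 1.48e-06).

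SLC3A2 in SkBr3 was the most counted of the 6 genes, at 943, 976, 951 and 914 CPM in control, 1846, 1946, 1399.95 and 2058 CPM with the lean secretome and 1002, 875, 937 and 1024 CPM with the obese secretome. The lean libraries were the highest, replicate 3 again the lowest of them, and the obese libraries spanned the controls. Lean over obese was 0.92 (SE 0.105, adjusted p = 7.22e-05) and lean over control 0.94 (SE 0.105, adjusted p = 4.07e-05).

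The ratio of Slc7a11 to Slc3a2 counts within a library does not depend on library scaling. In NMuMG it was 0.0625 ± 0.0020 (SD, n = 3) in control, 0.331 ± 0.020 in the lean and 0.158 ± 0.067 in the obese group, and no library of 1 medium overlapped another medium. In E0771 it was 0.0215 ± 0.0034, 0.0417 ± 0.0049 and 0.0223 ± 0.0035 (SD, n = 3) in the same order, and in SkBr3 0.00739 ± 0.00032, 0.0210 ± 0.0066 and 0.00799 ± 0.00093 (SD, n = 4). The lean libraries had the highest ratio in each line. The exact two-sided permutation test gave p = 0.1 for each lean comparison in the mouse lines, the smallest that 3 against 3 libraries allow, and p = 0.0286 in SkBr3, the smallest for 4 against 4; adjusted over the 18 ratio tests all were 0.12.

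The ligase has a catalytic subunit, Gclc, and a modifier subunit, Gclm, which raises its activity. The upstream sequence of Gclm is shown beside that of Slc7a11 because the 2 genes led in different lines. The part of these sequences in that difference was not tested, and a match of letters is not a site shown to be bound. The 250 bases upstream of the mouse Gclm start (RefSeq, GRCm38.p6, chr3:122245307-122245556, plus strand) are printed 5' to 3', with the match to TGACNNNGC in capitals; it lies on the opposite strand, at bases -134 to -126.
Gclm: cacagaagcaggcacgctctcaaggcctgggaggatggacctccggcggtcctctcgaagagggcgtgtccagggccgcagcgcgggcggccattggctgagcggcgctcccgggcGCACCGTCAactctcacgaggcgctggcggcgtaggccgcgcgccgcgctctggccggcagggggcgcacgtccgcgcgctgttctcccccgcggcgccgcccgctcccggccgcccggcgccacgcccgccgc
On both strands, 10.2% of the 32851 promoters (3338) held at least 1 such match, and this window held no TGATGNAA. The windows of Slc3a2 and Gss held neither motif, and Gclc and Gsr were not analysed for sequence.

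Gclm gave the largest change of the 6 genes in E0771. It was at 117, 114 and 116 CPM in control, 376, 356 and 402 CPM with the lean secretome and 177, 112 and 132 CPM with the obese secretome. The lean libraries were above all others by a wide margin, and obese replicate 1 stood above the other 2 obese libraries. The log2 fold change was 1.43 over obese (SE 0.16, adjusted p = 0.000322) and 1.71 over control (SE 0.16, adjusted p = 0.000123). In SkBr3 GCLM was at 81.7, 81.4, 79.3 and 76.2 CPM in control, 215, 229, 174 and 229 CPM with the lean and 130.1, 84.7, 96.0 and 123 CPM with the obese secretome. Its 3 media did not overlap, and lean was higher than obese by 0.97 (SE 0.14, adjusted p = 0.000366) and than control by 1.41 (SE 0.14, adjusted p = 2.38e-05). In NMuMG the change was smaller, from 219, 212 and 216 CPM in control to 312, 306 and 334 CPM with the lean secretome, against 252, 213 and 219 CPM with the obese secretome. The lean libraries did not overlap the others, and the log2 fold change was 0.48 over obese (SE 0.05, adjusted p = 5.33e-06) and 0.56 over control (SE 0.05, adjusted p = 7.23e-07).

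Gclc, the catalytic subunit, was higher with the lean secretome in each line. In NMuMG it was at 360.1, 345 and 346 CPM in control, 884, 847 and 963 CPM with the lean and 570.2, 395 and 395 CPM with the obese secretome. All 3 media were separate, and the log2 fold change was 0.99 over obese (SE 0.15, adjusted p = 0.00279) and 1.36 over control (SE 0.15, adjusted p = 0.000557). In E0771 it was at 181, 175 and 165 CPM in control, 339, 336 and 385 CPM with the lean and 269.5, 189 and 209 CPM with the obese secretome. The media were separate here too, with 0.67 over obese (SE 0.14, adjusted p = 0.00591) and 1.02 over control (SE 0.14, adjusted p = 0.000713). In SkBr3 GCLC was at 62.8, 61.7, 58.2 and 59.2 CPM in control, 129, 127, 104 and 125 CPM with the lean and 75.5, 61.3, 64.2 and 77.2 CPM with the obese secretome. The lean libraries were clear of the others, by 0.81 over obese (SE 0.08, adjusted p = 3.43e-06) and 1.01 over control (SE 0.08, adjusted p = 2.27e-07).

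The ratio of the 2 ligase transcripts lay on opposite sides of control in the lean libraries of the mouse lines. The ratio of Gclc to Gclm counts in E0771 was 1.50 ± 0.07 (SD, n = 3) in control, 0.934 ± 0.030 in the lean and 1.60 ± 0.08 in the obese group, so the lean libraries were the lowest. In NMuMG it was 1.62 ± 0.02, 2.83 ± 0.06 and 1.97 ± 0.25 (SD, n = 3) in the same order, so they were the highest. In SkBr3 it was 0.759 ± 0.018, 0.575 ± 0.029 and 0.649 ± 0.061 (SD, n = 4), lowest on average with the lean secretome. Each lean comparison in the mouse lines reached p = 0.1, the smallest the exact permutation test allows with 3 against 3. In SkBr3 the exact permutation test gave p = 0.0286 for lean against control and for obese against control, and p = 0.0857 for lean against obese, whose libraries overlapped. All of these were 0.12 after adjustment over the 18 ratio tests. At these group sizes none could pass, so the adjusted values cannot decide whether the ratio differed.

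**Figure D2:**
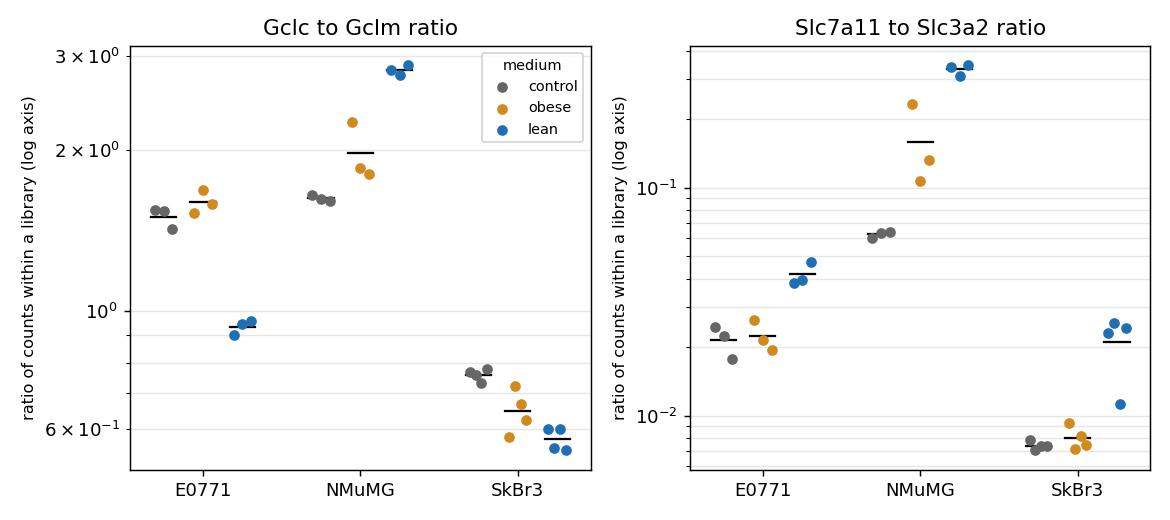
Ratio of counts within each library, on log axes, for Gclc to Gclm (left) and Slc7a11 to Slc3a2 (right) by cell line and medium; each point is a library and each line a group mean. The lean libraries have the lowest Gclc to Gclm ratio in E0771 (mean 0.934) and the highest in NMuMG (mean 2.83), and the highest Slc7a11 to Slc3a2 ratio in each line.

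Gss, glutathione synthetase, rose in both mouse lines. In E0771 it was at 31.7, 32.8 and 34.7 CPM in control, 53.3, 52.6 and 56.6 CPM with the lean and 33.7, 33.7 and 35.2 CPM with the obese secretome, and in NMuMG at 56.3, 62.0 and 57.4, at 93.4, 93.0 and 106 and at 65.2, 56.4 and 61.2 CPM. In both lines the lean libraries were above all others, while obese and control libraries overlapped. Lean over obese was 0.66 in E0771 (SE 0.06, adjusted p = 7.08e-10) and 0.68 in NMuMG (SE 0.05, adjusted p = 6.63e-10). Lean over control was 0.71 (SE 0.06, adjusted p = 1.61e-10) and 0.73 (SE 0.05, adjusted p = 7.38e-11). GSS in SkBr3 was at 84.1, 87.4, 86.5 and 89.1 CPM in control, 93.8, 83.9, 84.1 and 91.3 CPM with the lean and 89.1, 87.1, 86.5 and 89.5 CPM with the obese secretome. These groups overlapped fully, and the log2 difference of lean over control was 0.03 (SE 0.04, adjusted p = 0.645).

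Gsr, glutathione reductase, recycles glutathione with NADPH and makes none of it anew. In E0771 it was at 126, 128 and 131 CPM in control, 241, 233 and 256 CPM in the lean group and 164, 129 and 137 CPM in the obese group. The lean libraries stood apart, with 0.76 over obese (SE 0.07, adjusted p = 1.98e-06) and 0.92 over control (SE 0.07, adjusted p = 3.08e-07). In NMuMG it was at 377, 389 and 382 CPM in control, 440.03, 439.9 and 459 CPM with the lean and 417, 369.8 and 392 CPM with the obese secretome. The lean libraries were again the highest, by only 0.18 over obese (SE 0.04, adjusted p = 0.000111) and 0.22 over control (SE 0.04, adjusted p = 5.27e-06). GSR in SkBr3 was at 156, 160.03, 154 and 155 CPM in control, 184, 185, 168 and 182 CPM with the lean and 159.97, 153, 160.4 and 160.1 CPM with the obese secretome. Its change of 0.18 over obese (SE 0.04, adjusted p = 0.000389) and 0.20 over control (SE 0.04, adjusted p = 0.000112) was small, and no lean library overlapped the others.

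**Figure D3:**
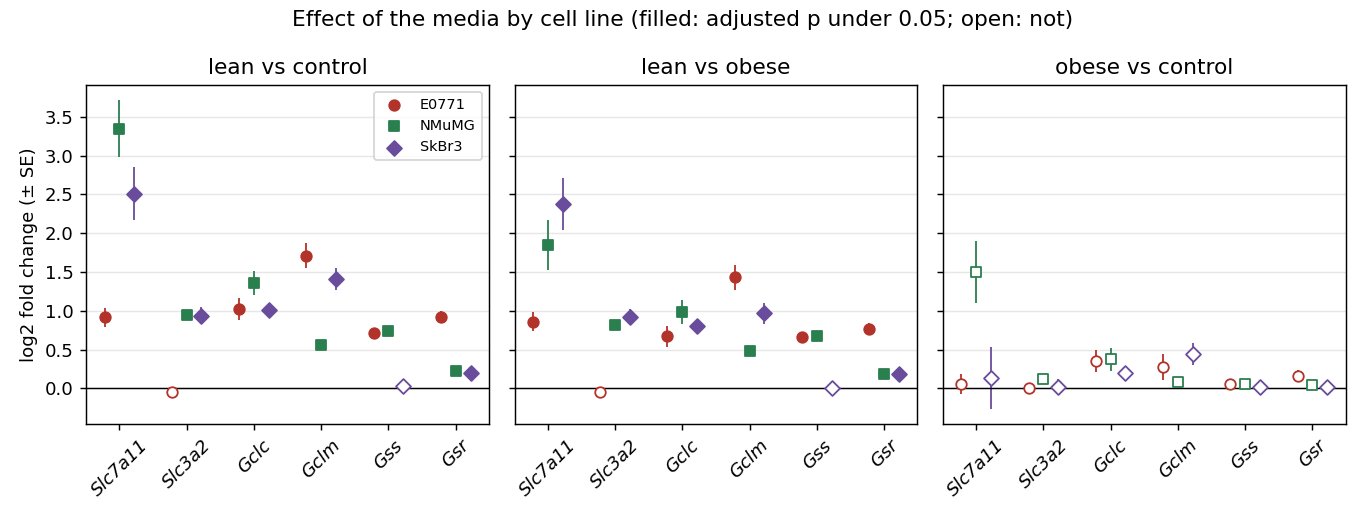
Log2 fold change (points, with bars of 1 SE) of the 6 genes in the 3 cell lines for lean over control, lean over obese and obese over control; filled points passed an adjusted p under 0.05 and open points did not. Slc7a11 reaches 3.35 in NMuMG for lean over control, Gclm leads in E0771 at 1.71, and all points are open for obese over control.

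The obese secretome was then compared with control medium. None of the 6 genes was called in E0771, NMuMG or SkBr3 by edgeR, where 2.61%, 5.01% and 1.16% of all tested genes were; at an unadjusted p under 0.05 there were 1, 2 and 2 of the 6. DESeq2 called 0, 1 and 1. Obese and control libraries did not overlap in Gclc in E0771 (0.35, adjusted p = 0.3), in Slc7a11 and Gclc in NMuMG (Gclc 0.37, adjusted p = 0.299) and in GCLM in SkBr3 (0.45, adjusted p = 0.195), each with all obese libraries the higher. Among all tested genes, obese lay above control without overlap in 10.8% in E0771, 10.7% in NMuMG and 4.89% in SkBr3. The median log2 difference of the 6 genes was 0.11 in E0771, 0.10 in NMuMG and 0.08 in SkBr3, where that of all genes was within 0.003 of 0 in size.

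Replicate 1 of the obese group weighed on these values in the mouse lines. It was the highest of the 3 obese libraries for 6 of 6 genes in NMuMG and for 4 of 6 in E0771, Slc3a2 and Gss being the other 2. Without it, Gclc in NMuMG was higher than control by 0.18 with a smaller spread and passed (adjusted p = 0.00815), as Slc7a11 did. In E0771 the difference of Gclm fell to 0.07 and that of Gclc to 0.19 without it, and neither passed. Lean over obese in E0771 without it was 1.63 for Gclm and 0.83 for Gclc. On the other side, obese replicate 2 was the lowest of the obese libraries for 6 of 6 genes in NMuMG and for 4 of 6 in E0771. Lean replicate 3 was the highest of the lean libraries for 6 of 6 genes in E0771 and in NMuMG. Lean replicate 2 was the lowest of them for 6 of 6 in NMuMG and for 5 of 6 in E0771. In SkBr3, lean replicate 3 was the lowest of the 4 lean libraries for 5 of 6 genes.

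The effects of the medium were next compared between NMuMG and E0771 in a single fit of the 18 mouse libraries, in which 16529 genes were tested. For lean over obese, 3 of the 6 differed between lines, against 34.2% of all genes. The Slc3a2 change was larger in NMuMG, by 0.85 (SE 0.08, adjusted p = 7.35e-08), while the NMuMG change was smaller for Gclm, by -0.97 (SE 0.17, adjusted p = 0.000621), and for Gsr, by -0.60 (SE 0.09, adjusted p = 4.07e-05). Slc7a11 (0.96, SE 0.43, adjusted p = 0.112), Gclc (0.30, SE 0.21, adjusted p = 0.313) and Gss (0.00 in size, SE 0.08, adjusted p = 0.99997) did not pass. Without NMuMG obese replicate 1, Slc7a11 (1.48, adjusted p = 0.00011) and Gclc (0.50, adjusted p = 0.0334) passed as well, which made 5 of 6.

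For lean over control, 4 of the 6 differed between these lines, against 34.5% of all genes. The NMuMG change was larger for Slc7a11, by 2.41 (SE 0.46, adjusted p = 0.00115), and for Slc3a2, by 0.97 (SE 0.08, adjusted p = 1.26e-08). It was smaller for Gclm, by -1.18 (SE 0.17, adjusted p = 0.000136), and for Gsr, by -0.73 (SE 0.09, adjusted p = 4.67e-06). Both subunits of the exchanger thus responded more in NMuMG, and the modifier subunit and the reductase more in E0771. This and the preceding comparison use the same lean libraries. For obese over control, 0 of the 6 differed in edgeR, against 1.69% of all genes, with 1 (Slc7a11) at an unadjusted p under 0.05; no other tool was run on this difference. SkBr3 is of another species and table, and its effects were not tested against those of the mouse lines.

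Before any secretome, the lines already differed in most genes. In control medium 80.5% of all genes were called between NMuMG and E0771. Of the 6 genes 5 were called, a share near that of all genes. NMuMG was higher in Gsr by 1.70 (SE 0.07, adjusted p = 2.18e-14), in Gclc by 1.13 (SE 0.15, adjusted p = 9.76e-06), in Gclm by 1.02 (SE 0.13, adjusted p = 5.31e-06) and in Gss by 0.95 (SE 0.06, adjusted p = 4.03e-18). It was lower in Slc3a2, by -0.80 (SE 0.06, adjusted p = 7.44e-11). Slc7a11 stood 0.74 higher without passing (SE 0.36, adjusted p = 0.0792). Insulin and a glucose level are given for the medium of NMuMG and not for that of E0771, and line and growth medium cannot be told apart here.

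Per kilobase of the principal transcript, the order of the genes in E0771 control medium was Slc3a2 (209.6 ± 12.8 CPM per kb, SD, n = 3), Gclc (50.8 ± 2.4), Gsr (48.0 ± 0.9), Gclm (20.7 ± 0.3), Gss (16.8 ± 0.8) and Slc7a11 (0.884 ± 0.089). Of the neighbours in this order, only Gclc and Gsr had overlapping libraries. In NMuMG control medium it was Gsr (143 ± 2 CPM per kb), Slc3a2 (110.3 ± 2.7), Gclc (102 ± 3), Gclm (38.6 ± 0.6), Gss (29.8 ± 1.5) and Slc7a11 (1.36 ± 0.08), with no overlap between neighbours. Slc7a11 was thus the least abundant of the 6 transcripts per kilobase in both lines. With the lean secretome it reached 1.67 ± 0.27 CPM per kb in E0771 and 13.8 ± 1.2 in NMuMG, still the lowest of the 6. In NMuMG that rank depends on the transcript lengths used, 9223 bases for Slc7a11 and 1963 for Gss. Without them, Slc7a11 was there at 127.5 ± 11.1 CPM with the lean secretome and Gss at 97.4 ± 7.3 CPM (SD, n = 3).

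The genes around this route were taken from 8 lists holding 75 mouse genes, drawn up with earlier results of these data known. In E0771, 59 of the 75 could be tested, of which 23 rose, 21 fell and 15 did not pass between lean and obese secretome, with a median log2 difference of 0.02. In NMuMG 65 were tested, of which 18 rose, 7 fell and 40 did not pass, with a median of 0.04. These shares are to be read against the 52.7% and 35% of all genes called. Between obese secretome and control, 1 rose and 2 fell in E0771, and 2 rose and 2 fell in NMuMG, where 2.61% and 5.01% of all genes were called.

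Among carriers of cystine, cysteine and glutamate, 1 of 5 tested rose and 1 fell in E0771, and 2 of 7 rose in NMuMG. The rise in E0771 was that of Slc3a1, near the floor at 0.598 ± 0.086 against 0.260 ± 0.182 CPM (SD, n = 3). It is named outside the rule. Ctns, which exports cystine from lysosomes, fell by 0.24 on the log2 scale in E0771 (adjusted p = 0.000497). In NMuMG Slc1a4, a carrier of alanine, serine and cysteine, rose by 0.68 (56.7 ± 2.7 against 35.5 ± 4.3 CPM, SD, n = 3, adjusted p = 8.97e-10), as did Slc7a9, a cystine carrier of kidney and gut, by 1.20 at a low level (1.94 ± 0.52 against 0.841 ± 0.108 CPM, SD, n = 3). Of the other light chains that pair with Slc3a2, Slc7a5, a main carrier of leucine, fell in both lines, by 0.37 in E0771 (713 ± 15 against 921 ± 9 CPM, SD, n = 3) and by 0.33 in NMuMG (105 ± 9 against 132 ± 4 CPM). Slc7a6, a carrier of basic and neutral amino acids, rose by 0.41 in E0771, and Slc7a7 fell by 0.26 there and rose by 0.25 in NMuMG. Among the tested light chains of Slc3a2, the rise of Slc7a11 was the largest in each mouse line.

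In the methionine cycle and transsulfuration, the route by which cells can make cysteine themselves, 3 of 7 tested genes rose and 3 fell in E0771, and 1 of 9 rose and 3 fell in NMuMG. Mtrr, which reactivates methionine synthase, rose by 0.56 in E0771 and by 0.23 in NMuMG. In E0771 Ahcyl1 rose by 0.31. In NMuMG Mat2a, which makes S-adenosylmethionine, fell by 0.23 and Ahcy by 0.19. Cbs and Cth, the enzymes that make cystathionine and split it to cysteine, had too few counts for a test in E0771; in NMuMG they were at 9.90 ± 0.50 and 13.6 ± 0.5 CPM with the lean and 9.57 ± 0.69 and 12.8 ± 0.2 CPM with the obese secretome (SD, n = 3), and neither passed between the secretomes (Cbs 0.05, adjusted p = 0.704; Cth 0.10, adjusted p = 0.409). Cbs fell below its control level of 12.5 ± 1.2 CPM (SD, n = 3) with both, by 0.33 with lean (adjusted p = 0.00362) and by 0.38 with obese secretome (adjusted p = 0.00875). Of cysteine use outside glutathione, Mpst, a sulfur transferase, fell in both lines, by 0.90 in E0771 and 0.27 in NMuMG, and Csad, of taurine synthesis, fell by 0.59 in E0771. Got1, an aspartate transaminase that also acts on cysteine sulfinate, rose there by 0.16. The counts were 1 up and 2 down of 5 in E0771, and 0 up and 1 down of 6 in NMuMG.

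Among genes of glutathione breakdown, 3 of 9 tested rose and 4 fell in E0771, and 1 of 8 rose and none fell in NMuMG. Chac1, which cleaves glutathione in the cytosol, fell by 1.31 in E0771, from 8.43 ± 0.98 CPM with the obese to 3.39 ± 0.47 CPM with the lean secretome (SD, n = 3, adjusted p = 3.93e-08). In NMuMG Chac1 was at 5.62 ± 0.99 and 4.90 ± 0.83 CPM with lean and obese secretome (SD, n = 3), a difference of 0.19 that did not pass (adjusted p = 0.282). Ggct, which turns gamma-glutamyl amino acids into oxoproline, rose by 1.03 in E0771 (20.4 ± 1.8 against 10.0 ± 1.4 CPM, SD, n = 3), and Ggt5, which cleaves glutathione outside the cell, fell by 1.11 at a low level. Ggt6 rose by 0.84 in NMuMG, also at a low level (3.16 ± 1.17 against 1.76 ± 0.24 CPM, SD, n = 3).

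Among enzymes that use glutathione, 4 of 10 tested rose and 3 fell in E0771, and 5 of 11 rose and none fell in NMuMG. Esd, which hydrolyses S-formylglutathione, rose in both lines, by 0.94 in E0771 (927 ± 15 against 483 ± 118 CPM, SD, n = 3) and by 0.70 in NMuMG (631 ± 32 against 388 ± 109 CPM). Txnrd3, a reductase for thioredoxin and glutathione, rose by 0.74 and 0.37. Gpx1, which reduces peroxides with glutathione, fell by 0.41 in E0771 (56.1 ± 6.1 against 74.6 ± 1.3 CPM) and rose by 0.48 in NMuMG (163 ± 1 against 116 ± 10 CPM, SD, n = 3).

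Among carriers of glutathione and its conjugates, 3 of 7 tested rose and 2 fell in E0771, and 4 of 8 rose and 1 fell in NMuMG. Abcc4, an export pump, rose by 1.09 in E0771 (258 ± 7 against 122 ± 19 CPM, SD, n = 3, adjusted p = 1.06e-05) and by 1.00 in NMuMG (530.5 ± 40.3 against 265 ± 45 CPM, adjusted p = 0.000957). Abcc1, the main pump for glutathione conjugates in many cells, rose by 0.85 in E0771. It also rose in NMuMG, by 0.67 (adjusted p = 0.0121), a value named outside the rule after it was seen. Abcc2, the pump of the bile canaliculus, rose by 3.08 in NMuMG, from 7.21 ± 4.90 to 60.1 ± 10.2 CPM (SD, n = 3, adjusted p = 0.000864), and Abcc3 by 0.72. Slc25a39, which carries glutathione into mitochondria, fell by 0.38 in E0771.

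Of 13 regulators, 7 rose and 4 fell in E0771, and 4 rose and 1 fell in NMuMG. Atf3, a stress-induced factor, rose by 1.40 in E0771 (10.7 ± 0.8 against 4.06 ± 0.40 CPM, SD, n = 3), with the small Maf partners Maff (1.30) and Mafk (0.75). Mafk also rose in NMuMG, by 0.57, and Maff by 0.20. Atf4 fell in both lines, by 0.27 in NMuMG (168 ± 1 against 202 ± 9 CPM) and by 0.70 in E0771 (268 ± 9 against 435 ± 6 CPM, SD, n = 3); the value in E0771 is named outside the rule, after it was seen. Transcripts of Nfe2l2, which encodes NRF2, were at 98.9 ± 10.1 with lean and 91.9 ± 2.8 CPM with obese secretome in E0771 (SD, n = 3), and at 159.5 ± 7.8 and 169.7 ± 6.8 CPM in NMuMG, and did not pass in either line (0.11, adjusted p = 0.14; -0.09, adjusted p = 0.0637) between the secretomes. Over control, Nfe2l2 with the lean secretome rose by 0.17 in E0771 (adjusted p = 0.0185) and fell by 0.15 in NMuMG (adjusted p = 0.00201); these values too were named after they were seen. A transcript level does not measure the amount or activity of either factor.

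**Figure D4:**
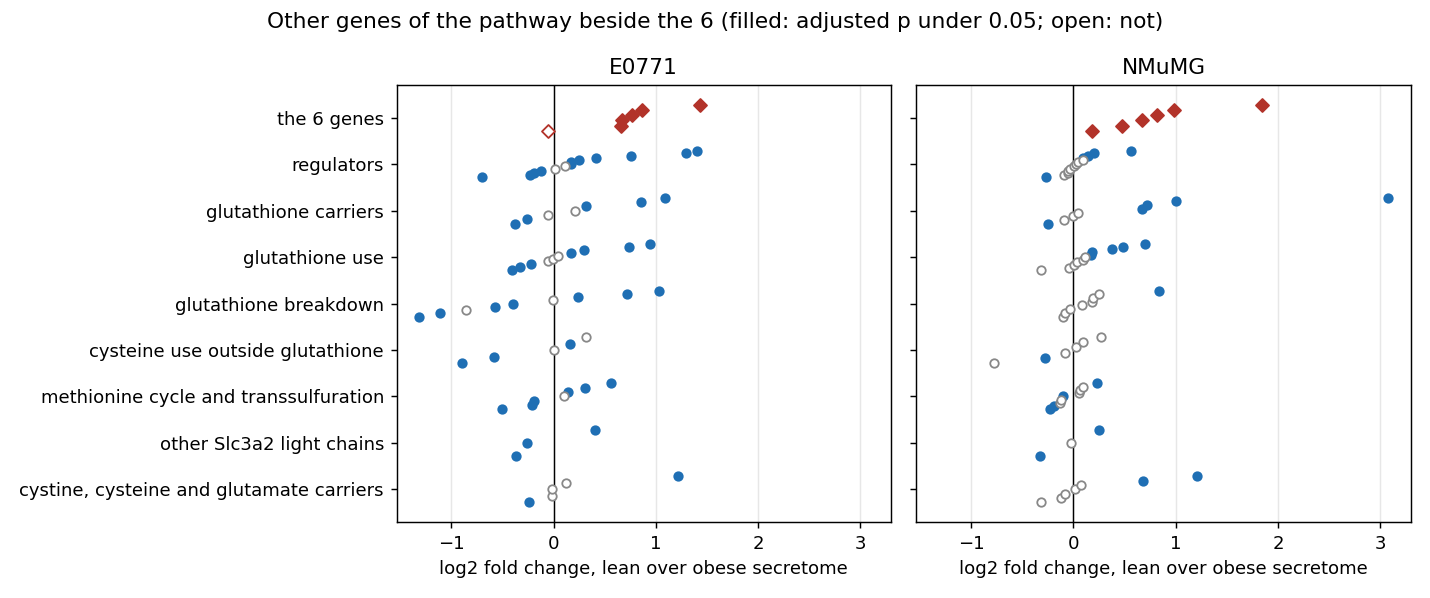
Log2 fold change of lean over obese secretome for the 6 genes (diamonds) and the tested genes of 8 related lists (circles) in E0771 and NMuMG; filled points passed an adjusted p under 0.05. The list genes lie on both sides of 0, and Abcc2 in NMuMG (3.08) is the point farthest from 0.

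Across the 18 mouse libraries, the genes most like Slc7a11 were found among 9287 genes by the root mean square difference of log2 CPM centred per gene and line. They were Blvrb, a biliverdin and flavin reductase (0.389), and the glutathione S-transferases Gsta4 (0.390) and Gstm1 (0.416), where the median over all genes was 1.06. Of the other 5 genes of the route, Gclc ranked 9th, Slc3a2 57th, Gss 60th, Gclm 149th and Gsr 384th. The genes most like Gclm were Rhpn2 (0.110), Gbe1, the glycogen branching enzyme (0.119), and Prdx6, a peroxiredoxin that uses glutathione (0.143), where the median was 0.580. Gsr ranked 66th, Gss 145th and Gclc 170th for likeness to Gclm, while Slc3a2 ranked 4492nd and Slc7a11 9108th. The measure is not scaled, so it also counts the size of a change. The centred values of Slc7a11 had a root mean square of 1.05 and those of Gclm 0.574. A late rank therefore need not mean a change in another direction. All of these libraries share media and lines, so the ranks are a description.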

How the data were processed

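The data are 30 RNA-seq libraries of 3 cell lines in 3 media, given as 2 tables of counts. The authors deposited raw counts of reads per Ensembl gene ID, whole numbers with no normalization. The submitters' processing notes list cutadapt 1.16, STAR 2.7.9a, featureCounts 1.6.3 and the build GRCm39, without roles; the notes of the human libraries list the same mouse build, so the build of the human table is not given in the sources used here, nor are the annotation release and the strand setting of the counting. Reads carry no molecular identifiers.

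Mouse symbols came from GENCODE M21, which matched 52073 of 56980 IDs, and were used for names and for the length of the longest principal transcript. No human names were used beyond the 6 orthologue IDs, so the lists were run in mouse only. Dpep2 matched 2 IDs and was left out.

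Each line was fitted alone with its 3 media in edgeR 4.0.16 under R 4.3.3: filterByExpr, TMM (factors 0.987 to 1.02), robust quasi-likelihood F test, Benjamini-Hochberg over all genes tested (13813 in E0771, 15014 in NMuMG, 14874 in SkBr3). A gene was called below an adjusted p of 0.05. The difference between mouse lines was an interaction in 1 fit of 18 libraries. Ratios of counts were tested by exact two-sided permutation in scipy 1.17.1, adjusted over 18 tests. The scripts were tested on simulated data. Alternatives were DESeq2 size factors, no filter on low counts, the replicate number as a block, DESeq2 1.42.0, a fit of only the compared groups, and leaving out each library. The residuals of same-numbered replicates correlated between -0.09 and 0.11, so the numbers were not used as pairs.

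The genes of the route were named throughout; of each related list and line, up to 3 called genes with the largest change of lean over obese and mean log2 CPM not below 0; and the 3 genes most like Slc7a11 and Gclm with mean log2 CPM of 2 or more. A list gene that the rule would name is not reported here. The genes and lists were chosen with earlier results of these data known. Marker lists were epithelial, adipocyte, macrophage, endothelial and fibroblast; macrophage markers summed to between 3.68 and 5.97 CPM in the mouse lines, and endothelial markers to at most 5.63 CPM in E0771 and 0.371 CPM in NMuMG. Promoter sequences are RefSeq's, GRCm38.p6, with entries for 4 of the 6 genes.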

Additional observations from a re-analysis of the deposited data

Results flagged for a closer look

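Among 24 sets of 4 SkBr3 libraries (the 6 genes and 2 ratios in 3 media), 4 had 1 library far from the other 3 for the spread of the set. With the lean secretome they were the lowest values of GCLC (104 CPM), of GSR (168 CPM) and of the SLC7A11 to SLC3A2 ratio (0.0112), all in replicate 3, and with the obese secretome the lowest value of GSR (153 CPM), in replicate 2. Chance alone gives about 1 such set in 20 for independent sets, but these share libraries. Over all genes with enough counts, lean replicate 3 was also the farthest from the other lean libraries. The chi-square per degree of freedom between the counts of 2 libraries was 10.4, 11.6 and 15.2 with it, and 3.94 to 6.29 among the others.

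The effect of the medium differed between the mouse lines by a test of the difference itself. NMuMG minus E0771, the log2 difference in lean over obese was 0.85 for Slc3a2, -0.97 for Gclm and -0.60 for Gsr. In lean over control it was 2.41 for Slc7a11, 0.97 for Slc3a2, -1.18 for Gclm and -0.73 for Gsr.

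With the lean secretome the ratio of Gclc to Gclm was lower in every E0771 library, and higher in every NMuMG library, than in all control and obese libraries of the same line. Its log2 difference of lean over obese was -0.77 in E0771 and 0.53 in NMuMG, and that of lean over control was -0.68 in E0771 and 0.80 in NMuMG. The difference of the ratio between the lines was not tested.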

How the results depend on the processing

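The 44 called results of the 6 genes kept their direction and stayed past the threshold in all 517 alternative fits. Of 431 alternative fits of the 34 results that did not pass, 381 kept side and direction, 12 passed and 38 changed sign. For obese over control, the number of the 6 genes called went from 0 to 1 with no filter on low counts in E0771 (Gsr), NMuMG (Slc3a2) and SkBr3 (GCLC), and to 1 in DESeq2 in NMuMG (Slc7a11) and SkBr3 (GCLM). Leaving out 1 library gave 0 to 1 in E0771 (1, Gsr, without obese replicate 2) and 0 to 2 in NMuMG (2 without obese replicate 1, Slc7a11 and Gclc, and 2 without obese replicate 2, Slc7a11 and Slc3a2). For the difference between mouse lines in lean over obese it gave 3 to 5, the 5 without NMuMG obese replicate 1.

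The number of all genes called for obese over control went from 360 to 626 in E0771 and from 172 to 539 in SkBr3 with no filter, and in SkBr3 to 384 in DESeq2 and to 849 in a fit of the compared groups. Leaving out 1 library gave 79 to 498 in E0771, 384 to 893 in NMuMG and 20 to 374 in SkBr3. For the difference between mouse lines it was 279, with no filter 428, and 149 to 360 when leaving out 1 library.

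Signs changed only in small differences that did not pass. For Gss, NMuMG minus E0771, lean over obese was 0.012 with DESeq2 size factors and 0.010 with no filter, and lean over control 0.0060 and 0.0067. Leaving out 1 library gave -0.060 to 0.043 for the first, -0.044 to 0.035 for the second and, for obese over control, -0.051 to 0.053 for Gss and -0.19 to 0.17 for Gclc. In E0771 it gave -0.092 to 0.0078 for Slc3a2 in lean over control, and in obese over control -0.038 to 0.063 for Slc3a2, -0.072 to 0.16 for Slc7a11 and -0.076 to 0.15 for the log2 ratio of Slc7a11 to Slc3a2. In obese over control it gave -0.0047 to 0.080 for Gsr in NMuMG and -0.012 to 0.061 for SLC3A2 in SkBr3. GSS in SkBr3 gave -0.026 to 0.032 in lean over obese and -0.0053 to 0.053 in lean over control.

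In SkBr3, 3 libraries against 4 cannot reach an exact permutation p under 0.05, so without 1 library the unadjusted p of 0.0286 could not be reached. None of the ratios had passed after adjustment, and at these group sizes none could. Without 1 library the log2 differences were -0.42 to -0.38 (Gclc to Gclm, lean over control), -0.28 to -0.18 (the same, obese over control), 1.22 to 1.61 (Slc7a11 to Slc3a2, lean over obese) and 1.32 to 1.72 (lean over control).

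With the replicate block the number of the 6 genes called was 5, 6 and 5 in lean over obese (E0771, NMuMG, SkBr3) and 0 in each line in obese over control, and Slc7a11 in NMuMG was at 1.90 over obese (adjusted p = 0.0122); no call of the 6 genes changed. Residuals matched best with their own number in 6 of 18 comparisons in E0771, 7 of 18 in NMuMG and 3 of 24 in SkBr3. Each medium had only 3 libraries to match in the mouse lines and 4 in SkBr3, so chance alone also gives such matches.

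The count of Slc7a11 was as low as 128 in a SkBr3 library, which limits its precision.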
